A study of Mus musculus with 2 samples.

Results

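The cells described here are lectin-positive macrophages of mouse epididymal fat with few or no transcripts of Timd4, Ccl24 and Ednrb, called Timd4-low cells below. There were 55 of them among 2174 barcodes with at least 200 genes, 26 in a library from mice on low-fat diet (LFD) and 29 in a library from mice on high-fat diet (HFD). They were selected on unique molecular identifier (UMI) counts, each UMI standing for 1 captured transcript. A Timd4-low cell had at least 10 UMIs of C1qa, C1qb and C1qc together, 0 of Cd9, fewer than 10 of Dcn and fewer than 3 of Cdh5 and Cldn5. It also had at least 3 UMIs of Cd209f, Cd209d, Fcna and Folr2 together and at most 2 of Timd4, Ccl24 and Ednrb together. Cd209f, Cd209d, Fcna and Folr2 are called lectin genes below as a short name, although Folr2 is a folate receptor and not a lectin. The levels of all genes of the rule chose the cells and are given only as a description.

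Both libraries came from the stromal vascular fraction of epididymal white fat of C57BL/6J male mice, and both diets ran for 24 weeks from 6 weeks of age. The fat was dissociated enzymatically and the cells were profiled by droplet-based 3' sequencing. With 1 library per diet there were no replicates and no test was made, so every interval below is a 95% interval that covers counting error only. The number of mice behind a library was not given in the sources used here, and diet and library cannot be told apart. The diets are those of the sample labels; a treatment text deposited with both samples names low-fat feeding for each, and the labels were followed.

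Resident macrophages of fat take up dying cells, lipid and iron, and many of them carry the phosphatidylserine receptor Timd4 (TIM-4), the hyaluronan receptor Lyve1 and the folate receptor Folr2. Other macrophages derive from circulating monocytes and carry the chemokine receptor Ccr2. MHC class II molecules present peptides to CD4 T cells, and tissue macrophages differ widely in how much of them they make.

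The other 3 macrophage classes are given beside them, with the same limits on C1q, Dcn, Cdh5 and Cldn5. Gene by gene, only Timd4-high and lectin-low cells were compared with them, and Cd9-positive cells were counted and plotted. Timd4-high cells met the same rule but had at least 3 UMIs of Timd4, Ccl24 and Ednrb together (177 LFD, 97 HFD). Lectin-low cells had 0 UMIs of Cd9 and fewer than 3 of Cd209f, Cd209d, Fcna and Folr2 together (23 LFD, 78 HFD). Cd9-positive cells had at least 1 UMI of Cd9 (4 LFD, 117 HFD). The 2 libraries shared 0 barcodes.

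Timd4-low cells held a median of 5235 UMIs in LFD (1487 to 10035) and 5679 in HFD (1384 to 9281), and their counts summed to 125796 and 169335 UMIs. Timd4-high cells were deeper, at medians of 6474 and 6771 UMIs. Levels are given as CPM, the UMIs of a gene per 1000000 UMIs of all genes in the same class and library. The median mitochondrial share was 6.25% in LFD and 6.06% in HFD, but 6 LFD and 2 HFD cells were above 10%, with a maximum of 35.9%. Only 4 LFD and 7 HFD cells met limits close to the study's own, at most 2500 genes and under 5% mitochondrial UMIs. The study removed cells above 5%, so a HFD cell at exactly 5% was left out only by the limit used here.

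Markers of other cell types were nearly absent from the Timd4-low cells. Listed T cell, NK cell, neutrophil, mast cell, mural and mesothelial markers had 0 UMIs in both libraries. Of 6 fibroblast markers, only Dcn, a gene of the rule, had a UMI, and the list held at most 2 UMIs in any cell. The 6 endothelial markers held 1 UMI in LFD and 3 in HFD. Of the monocyte markers, Ccr2 was seen, with 14 UMIs in LFD and 27 in HFD, while Ly6c2, Plac8, Chil3 and Vcan were at 0. The list stood at 111 and 159 CPM, against 72.5 and 20.1 CPM in Timd4-high cells. The 6 dendritic cell markers summed to 13 UMIs (103 CPM) in LFD and 15 UMIs (88.6 CPM) in HFD, of which Cd209a gave 12 and 15, and Flt3, Xcr1, Clec9a and Ccr7 were at 0. The same list stood at 242 and 273 CPM in Timd4-high cells. The 5 adipocyte transcripts summed to 580 CPM in LFD and 472 CPM in HFD, against 405 and 332 CPM in Timd4-high cells, and most of these UMIs were Fabp4, which macrophages also make. Fabp4 was also at 873 CPM in the HFD T cells, and the part of free RNA in these levels was not tested. The macrophage genes Csf1r (914 and 862 CPM) and Adgre1 (453 and 620 CPM) were present, in 25 of 26 LFD and 27 of 29 HFD cells for Csf1r.

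The 5 genes proposed as markers of these cells, Ccl8, C4b, Rnase2a, Cd209d and Wfdc17, were together lower in them than in their Timd4-high neighbours. Together they reached 1646 CPM in LFD and 5291 CPM in HFD, below the 4701 and 12148 CPM of Timd4-high cells in the same libraries. They were above the 510 and 377 CPM of lectin-low cells. At most 4 of the 5 genes were seen in a single LFD cell, and all 5 in only 2 HFD cells. The class is therefore named by its rule and not by these genes. For Ccl8 and Rnase2a the direction depended on the cells kept. Under limits close to the study's own, 4 LFD and 7 HFD cells were left. The log2 ratio of Ccl8 over Timd4-high cells was then 0.52 (-1.60 to 1.90) in LFD and 0.67 (0.16 to 1.18) in HFD. That of Rnase2a was 2.39 (-3.75 to 6.39) and 2.21 (1.38 to 3.18).

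Ccl8, a monocyte-attracting chemokine at chr11:82115185-82116799 (GRCm38, plus strand), was detected in 8 of 26 LFD cells and 15 of 29 HFD cells. In LFD its counts ran from 0 to 21 UMIs with a median of 0, and in HFD from 0 to 159 UMIs with a median of 1. The level was 437 CPM (329 to 569) in LFD and 2776 CPM (2530 to 3038) in HFD. A single HFD cell gave 33.8% of the HFD counts and a single LFD cell 38.2% of the LFD counts. As a measure of free RNA, 2 of 71 LFD T cells (2.82%, median depth 2745 UMIs) had a Ccl8 UMI, while the HFD T cells had 0, which allows up to 63.9 CPM.

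C4b, a complement component at chr17:34728380-34743882 (minus strand), was seen in 13 LFD cells at 207 CPM (135 to 303) and in 17 HFD cells at 419 CPM (327 to 529). No cell had more than 16 UMIs of it. Wfdc17, a small secreted protease inhibitor-like protein at chr11:83703991-83706268 (plus strand), was seen in 23 LFD cells at 803 CPM (654 to 976) and in 24 HFD cells at 1004 CPM (859 to 1167). It was the most widely detected of the 5 genes. Cd209d, a C-type lectin gene at chr8:3871824-3878555 (minus strand) that is also part of the rule, reached 191 CPM (122 to 284) in LFD and 502 CPM (401 to 621) in HFD.

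Rnase2a, a ribonuclease gene at chr14:51255262-51256112 (minus strand), had 1 UMI in LFD and 100 in HFD. Of the 100, single cells gave 47, 36 and 13, and only 6 of 29 HFD cells had any. Rnase2a and the Cd209 genes have close paralogs, so reads may have been shared between copies and their counts are uncertain.

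**Figure D1:**
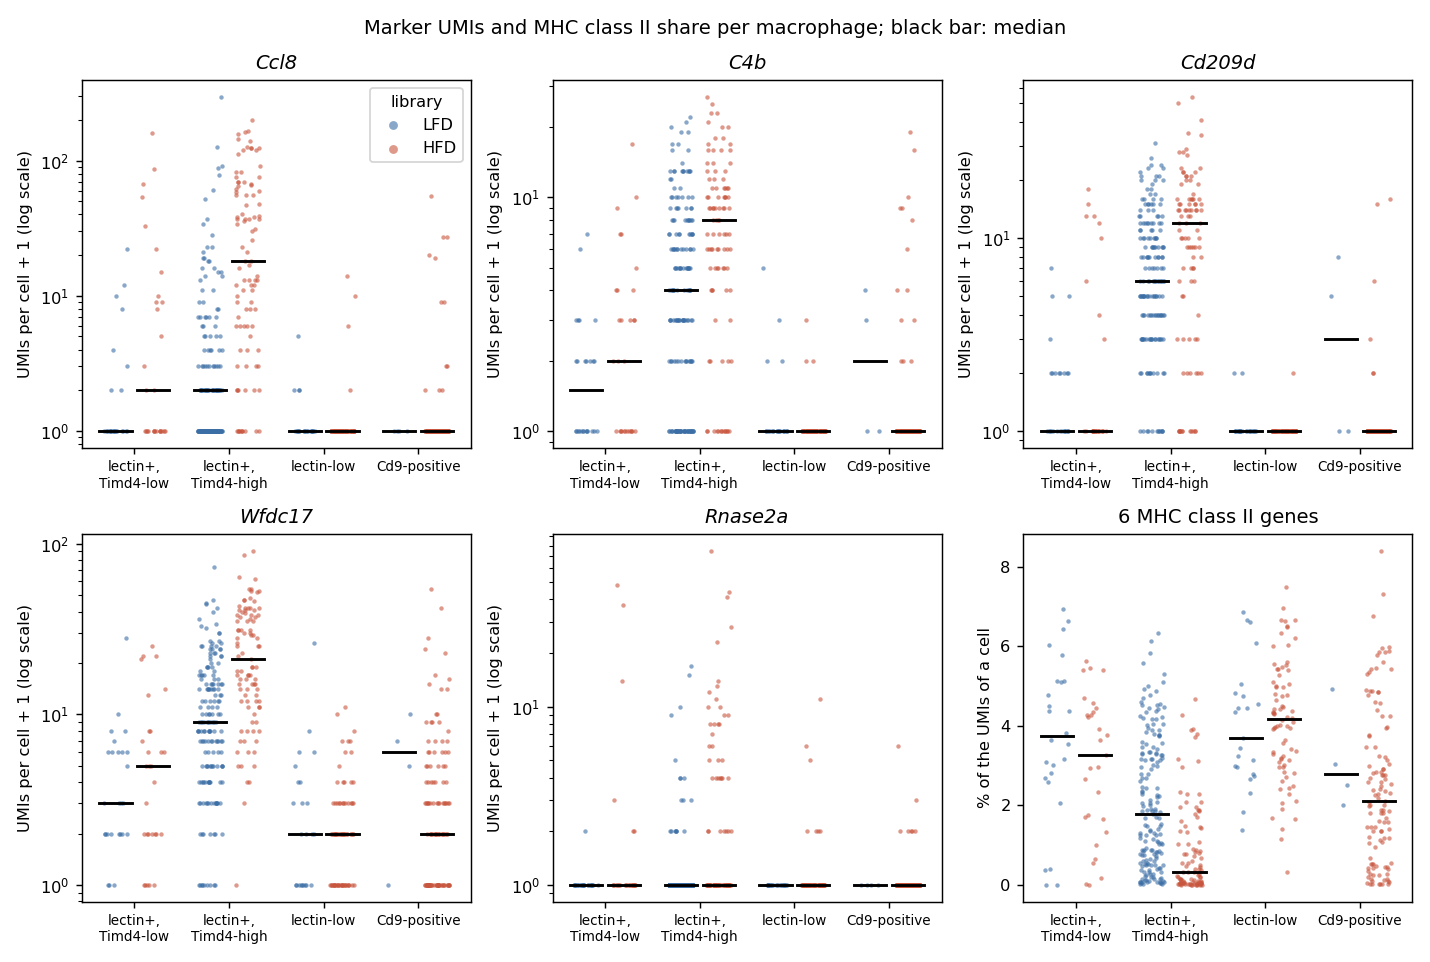
Each point is 1 macrophage, by class and library, and black bars are medians. The first 5 panels give UMIs per cell plus 1 on a log scale and the last the share of a cell's UMIs from 6 MHC class II genes. The proposed markers are lower in Timd4-low than in Timd4-high cells, apart from Rnase2a in HFD, while the class II share is higher, at medians of 3.74% against 1.78% in LFD and 3.27% against 0.336% in HFD.

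The counts of Timd4, Ccl24 and Ednrb left no gap at the limit of the selection rule. In LFD, 9, 12 and 5 cells had a Timd4, Ccl24 and Ednrb sum of 0, 1 and 2, and in HFD 16, 8 and 5 cells. Just outside the limit, 11 LFD and 10 HFD cells had a sum of exactly 3. Cells at a sum of 2 had an MHC class II share of 2.45% of UMIs in LFD and 2.96% in HFD, and cells at 3 had 3.15% and 1.5%. Ccl8 stood at 1010 CPM at a sum of 2 and 420 CPM at 3 in LFD, and at 5237 and 8349 CPM in HFD. Lyve1 stood at 404 and 420 CPM in LFD, and at 249 and 850 CPM in HFD. At the other limit, 1 LFD and 5 HFD cells had a lectin sum of exactly 3, and 4 LFD and 8 HFD cells low in Timd4 had a sum of 2. In HFD these neighbours had class II shares of 3.93% inside and 3.88% outside the limit.

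Across Timd4, Ccl24 and Ednrb counts, MHC class II was lowest and Lyve1 highest at a sum above 10, in both libraries. In HFD the class II share was 3.1% at a sum of 0, 1.45% at 3 to 5, 0.988% at 6 to 10 and 0.385% above 10. In LFD it was highest at a sum of 1 (5.20%) and lowest above 10 (1.57%). Lyve1 in HFD ran from 193 CPM at a sum of 0 to 1149 CPM above 10. Cd209d, a gene of the rule and so only a description, was in HFD at 153 CPM at a sum of 0 and 1496 CPM at 2. It was at 1259 CPM at 6 to 10 and 1980 CPM above 10, so it did not rise evenly. Median depth also differed along this axis, from 3259 UMIs at a sum of 0 to 7453 above 10 in LFD, and its part in the pattern was not tested.

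**Figure D2:**
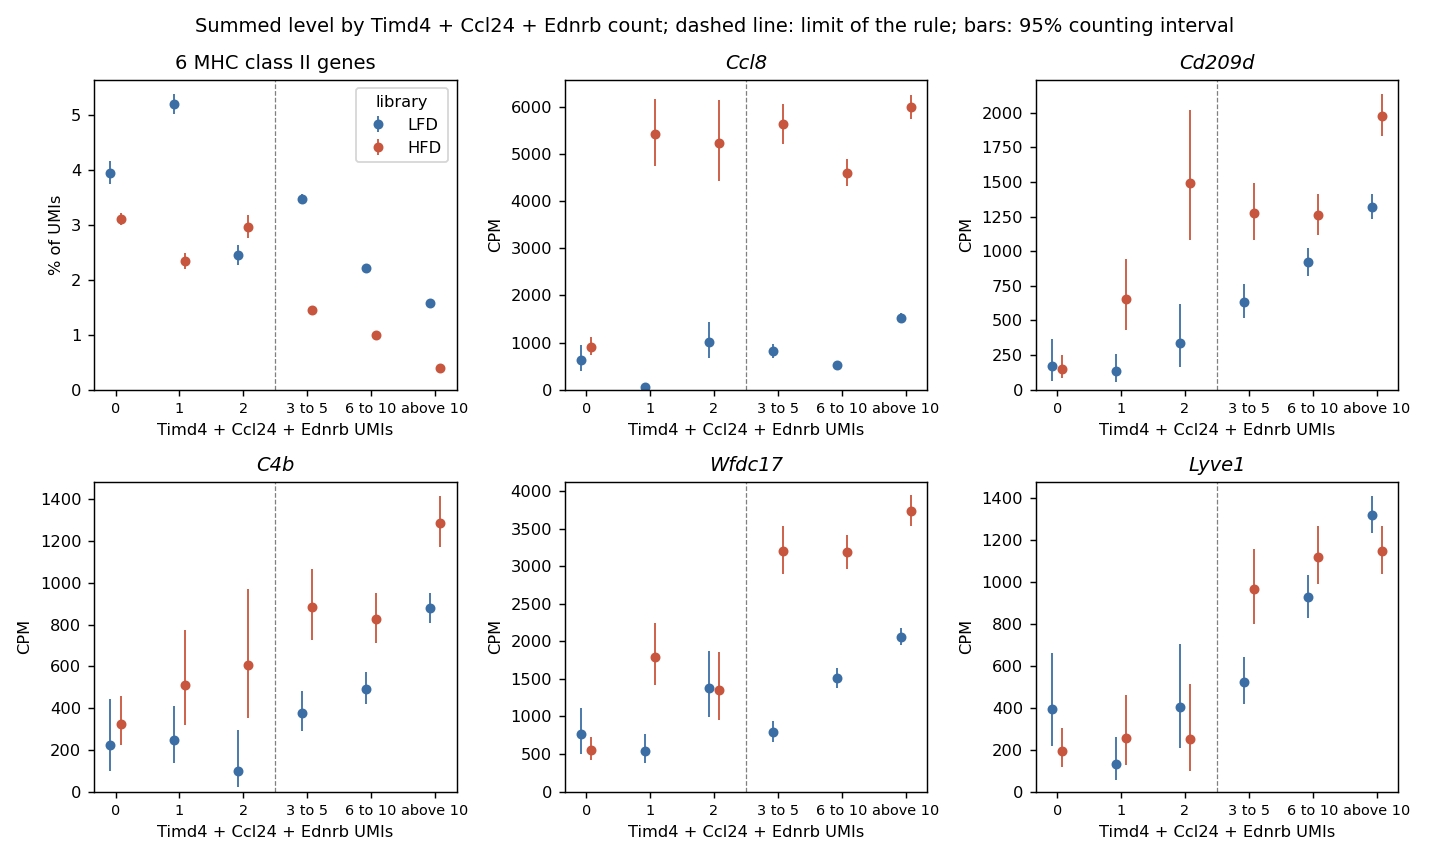
Summed level of 6 MHC class II genes (% of UMIs) and of 5 single genes (CPM) in lectin-positive macrophages without Cd9, by their UMIs of Timd4, Ccl24 and Ednrb together. Bars are 95% counting intervals and cells left of the dashed line are Timd4-low. Class II is lowest and Lyve1 highest in cells with more than 10 such UMIs, in both libraries. Cd209d is a gene of the rule and is shown as a description.

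MHC class II genes were higher in Timd4-low than in Timd4-high cells of the same library, while Lyve1, C4b, Wfdc17 and further CD209 lectins were lower. Called genes were those with at least 50 UMIs over both classes, a ratio of at least 2 or at most 0.5, and an interval that left out 1, without the genes of the rule. Of 2406 genes measured in both libraries, 12 (0.499%) were called higher and 19 (0.79%) lower in both. Of the 12, 5 were H2-Aa, H2-Ab1, H2-Eb1, H2-DMb1 and H2-DMa. No gene was called in opposite directions in the 2 libraries. Across genes, which are not replicates, the log2 ratios of the 2 libraries had a Pearson correlation of 0.28 and a Spearman correlation of 0.25, given as a description.

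H2-Aa, the alpha chain of the classical class II molecule I-A, lies at chr17:34282744-34287823 on the minus strand. Timd4-low cells held 0 to 108 UMIs of it in LFD, with a median of 38.5, and 0 to 90 in HFD, with a median of 42. Timd4-high cells had medians of 22 and 3 UMIs. The level was 9023 CPM against 4227 CPM in LFD, a ratio of 2.13 (2.0 to 2.28), and 6390 against 1559 CPM in HFD, a ratio of 4.10 (3.76 to 4.46). The classes overlapped cell by cell, since both held cells without H2-Aa. After every cell was thinned to 1000 UMIs, 88.5% of Timd4-low and 80.7% of Timd4-high cells had H2-Aa in LFD, and 82.8% and 49.5% in HFD. Unthinned, these shares were 92.3%, 92.7%, 89.7% and 69.1%, and 15.5% of LFD T cells had a UMI of it.

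H2-Ab1, the I-A beta chain (chr17:34257689-34269419, plus strand), was 2.10-fold higher in LFD (1.96 to 2.26) and 4.79-fold higher in HFD (4.35 to 5.28). H2-Eb1, the I-E beta chain (chr17:34305867-34316674, plus strand), was 2.41-fold (2.25 to 2.58) and 4.10-fold higher (3.73 to 4.52). H2-DMa and H2-DMb1 encode the chaperone that loads peptide onto class II molecules. H2-DMb1 was 2.41-fold higher in LFD (1.79 to 3.20) and 6.00-fold higher in HFD (4.26 to 8.50), and H2-DMa 2.03-fold and 2.74-fold, or 1.94-fold in LFD without the cell that held the most. The invariant chain gene Cd74 was 1.86-fold higher in LFD (1.77 to 1.95), under the limit of 2, and 3.12-fold higher in HFD (2.94 to 3.32). Ctss, the protease that trims the invariant chain, stayed under 2-fold, with ratios of 1.10 in LFD and 1.29 in HFD.

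Of 11 listed class II genes, 8 were measured in LFD and 5 of them were called higher, where 1.8% of all 3452 genes were. In HFD 7 were measured and 6 called higher, where 2.1% of all 2429 genes were. None was called lower in either library, where 3.39% and 3.62% of genes were. The median log2 ratio of the list was 1.05 in LFD and 2.04 in HFD, against -0.02 for all genes measured in each library. Under limits close to the study's own, with 4 and 7 cells, the medians were 0.36 and 1.16. No gene was then called higher in both libraries, so these calls were lost. With Timd4, Ccl24 and Ednrb all at 0 the medians were 0.85 and 2.08, and 5 genes were called higher and 11 lower in both.

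The monocyte list had 0 genes higher and 2 lower (S100a4 and S100a6) of 4 measured in LFD, with a median of -0.50. In HFD 0 of 3 were called, with a median of -0.07. Of all genes, 1.8% were called higher and 3.39% lower in LFD, and 2.1% and 3.62% in HFD. Ccr2, a gene of this list, was at 111 against 69.9 CPM in LFD (ratio 1.59, 0.834 to 2.83) and 159 against 15.8 CPM in HFD (ratio 10.1, 4.85 to 22.6). In HFD it was seen in 7 of 29 Timd4-low cells and had too few UMIs over both classes for a call. Its part in the class II difference was not tested.

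The promoters of 2 of these genes are shown because class II genes share short upstream elements, one of which is the Y box, the inverted CCAAT sequence GATTGG. The RefSeq windows for GRCm38.p6 held 4 of the 6 class II genes searched. The 110 bases before each start are printed 5' to 3' on the strand of the gene, with the match in capitals, for H2-Aa (chr17:34287824-34287933, minus strand) and H2-Eb1 (chr17:34305757-34305866, plus strand).
H2-Aa: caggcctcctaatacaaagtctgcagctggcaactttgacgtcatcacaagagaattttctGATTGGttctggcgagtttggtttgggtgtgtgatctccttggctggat
H2-Eb1: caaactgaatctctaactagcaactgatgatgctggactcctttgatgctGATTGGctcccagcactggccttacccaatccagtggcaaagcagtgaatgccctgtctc
The match ended 43 bases before the start in H2-Aa and 54 in H2-Eb1, which also held 1 match on the other strand. H2-DMb1 held a match 56 bases before its start, and H2-DMa held none within 110 bases of either of its starts. Of 32851 RefSeq windows, 9.25% held GATTGG on either strand within the 110 bases and 16.1% within the whole window. A match is a description of these letters and not evidence of binding.

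Another 7 genes were called higher in Timd4-low cells in both libraries. Ccnd1, the D-type cyclin of G1 (chr7:144929931-144939925, minus strand), was at 286 against 76.8 CPM in LFD and 254 against 74.6 CPM in HFD, ratios of 3.73 (2.46 to 5.55) and 3.40 (2.22 to 5.20). It was seen in 11 LFD and 13 HFD cells, and 1 HFD cell gave 39.5% of its HFD counts. Cd52, a small glycoprotein of leukocyte membranes, was 3.05-fold higher in LFD and 7.28-fold higher in HFD. Mpeg1, the pore-forming protein perforin-2, was 2.99-fold and 4.01-fold higher. Bcl2a1b, an antiapoptotic gene with near-identical copies, was 2.96-fold and 4.31-fold higher, so its reads may include those of its copies. Clec4b1, a C-type lectin, was 2.42-fold and 4.76-fold higher, Cxcl16 2.03-fold and 2.11-fold, and Neurl3 2.10-fold and 2.02-fold.

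The 19 lower genes included further surface proteins of resident macrophages. Lyve1 (chr7:110850607-110863239, minus strand) was seen in 10 LFD and 12 HFD Timd4-low cells, with a median of 0 UMIs and a maximum of 8 and 9. Its level was 270 against 1090 CPM in LFD and 219 against 1108 CPM in HFD, ratios of 0.248 (0.171 to 0.348) and 0.197 (0.138 to 0.274). The lectin genes Cd209a, Cd209b and Cd209g, which the rule did not use, were lower in both libraries, at 0.410, 0.401 and 0.477 of the Timd4-high level in LFD and 0.328, 0.199 and 0.253 in HFD. These 3 were the only further CD209 genes with enough counts, where 3.39% of all genes were called lower in LFD and 3.62% in HFD. They lie beside the Cd209 genes of the rule and resemble them in sequence.

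C4b was at 0.298 of the Timd4-high level in LFD and 0.394 in HFD, and Wfdc17 at 0.468 and 0.290. Under limits close to the study's own, the log2 ratio of C4b in LFD was -0.62 (-1.95 to 0.32) and its call was lost. Only 3 genes were then called lower in both libraries. Ccl6 was at 0.484 and 0.491, Ltc4s, which makes leukotriene C4, at 0.396 and 0.306, and the scavenger receptor Colec12 at 0.369 and 0.235. The peptidase gene Enpep was at 0.0991 and 0.294, from 1 UMI in LFD and 6 in HFD. Ms4a8a, Mfsd6, Tbc1d4, Ikbkb and Ddx60 were also called lower, each on at most 7 UMIs in the Timd4-low cells of a library. Ccl8 was lower in LFD, at 0.388 of the Timd4-high level (0.291 to 0.509), and at 0.507 in HFD (0.460 to 0.558), just above the limit. In HFD it stood at 915 CPM in cells with Timd4, Ccl24 and Ednrb at a sum of 0. At sums of 1 and 2 it was at 5428 and 5237 CPM, so the HFD ratio depended on the cells kept. Retnla, a secreted protein of alternatively activated macrophages, was at 4070 against 24434 CPM in LFD, a ratio of 0.167 (0.152 to 0.182), and at 0.558 of the Timd4-high level in HFD, or 0.438 without the top cell.

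**Figure D3:**
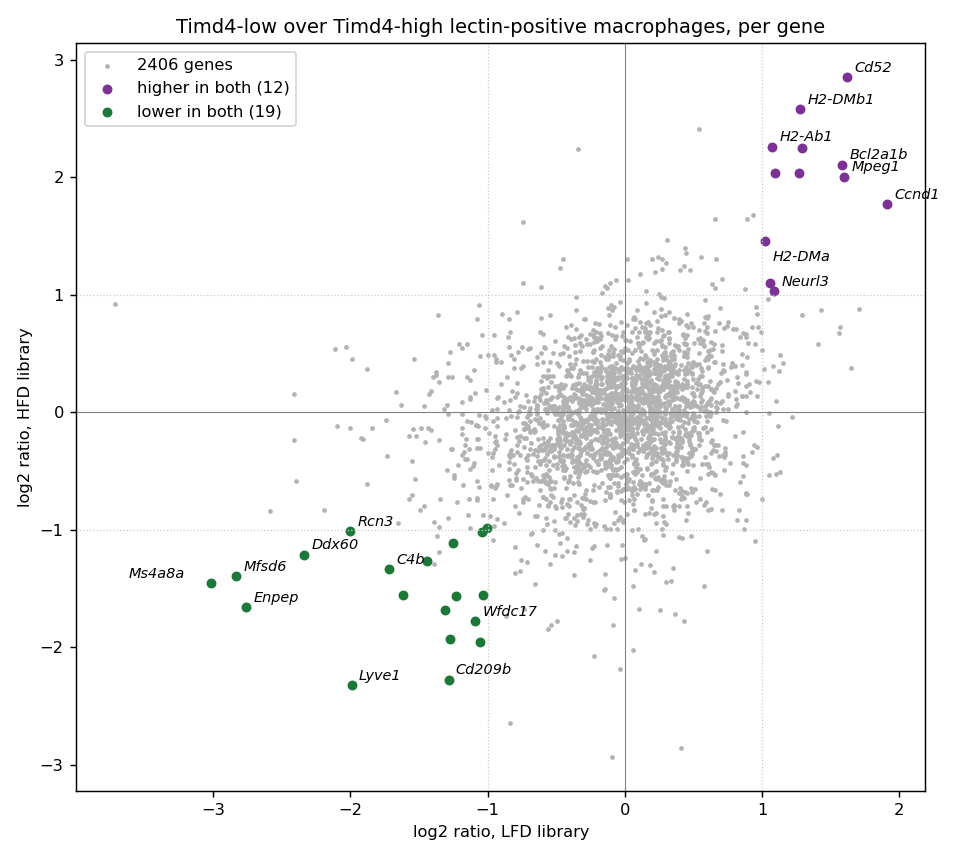
Log2 ratio of Timd4-low over Timd4-high cells for 2406 genes, in the LFD library on the x axis and the HFD library on the y axis. Coloured points are the 12 genes higher and 19 genes lower in both, and dotted lines mark 2-fold. Most class II genes lie further from 0 in HFD than in LFD.

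A list of 10 resident macrophage genes, some of them in the rule, summed to 11074 CPM in LFD and 8805 CPM in HFD, below the 17073 and 16490 CPM of Timd4-high cells. The C1q genes, which the rule required, made up 1.36% of UMIs in LFD and 1.74% in HFD, against 1.42% and 1.72% in Timd4-high cells. The mannose receptor Mrc1 had ratios of 0.966 (0.846 to 1.10) in LFD and 0.657 (0.571 to 0.753) in HFD, and Apoe 0.875 and 1.06. Of 17 scavenger and efferocytosis receptors measured in each library, Fcgrt, Lyve1 and Colec12 were lower in LFD and Cd163, Lyve1 and Colec12 in HFD, with list medians of -0.31 and -0.70 on the log2 scale. Of all genes, 3.39% were called lower in LFD and 3.62% in HFD. Cd93 was higher in HFD, 3.11-fold. The lysosome list had medians of -0.33 and -0.09, with Npc1 lower in LFD. None of 12 interferon-induced genes was called in LFD. In HFD, of 10 measured, Ly6e was lower, at 0.309, and Isg15 was 5.33-fold higher, but 85.7% of its counts came from 1 cell and the ratio was 0.967 without it.

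Chemokine ligands gave a mixed picture against Timd4-high cells. Of 15 measured in LFD, Cxcl10, Cxcl16, Ccl12, Ccl3 and Ccl4 were higher and Cxcl9, Ccl8, Ccl9 and Ccl6 lower, where 1.8% and 3.39% of all genes were. Cxcl9 came almost wholly from single cells, with 93.8% of the Timd4-low and 89.9% of the Timd4-high counts in 1 cell each. In HFD, of 14 measured, Cxcl1 and Cxcl16 were higher and Ccl6 lower (2.1% and 3.62% of all genes). Immediate early genes, which respond to tissue dissociation, took 1.94% of UMIs in LFD and 1.66% in HFD, against 2.0% and 1.41% in Timd4-high cells.

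Compared with lectin-low macrophages, Timd4-low cells were higher in Ccl8, Ccl12 and several scavenger genes and lower in monocyte and inflammation genes. Chemokine ligands as a list were mixed, with 4 higher and 5 lower of 12 in LFD (8.17% and 13% of all genes) and 3 higher and 1 lower of 13 in HFD (4.15% and 8.57%). The median log2 ratio of all genes was -0.10 in LFD and -0.14 in HFD, and the ratios below are not shifted for it. Of 776 genes measured in both libraries, 29 (3.74%) were called higher and 36 (4.64%) lower in both. The log2 ratios of the 2 libraries had a Pearson correlation of 0.77 across these genes, again as a description. Of the 7 class II genes measured, none was called higher, and H2-DMa alone was lower, in HFD. The class II share was 4.19% of UMIs in LFD Timd4-low cells against 3.36% in lectin-low cells, and 2.89% against 3.99% in HFD. Per cell the medians were 3.74% against 3.69% in LFD and 3.27% against 4.17% in HFD. Lectin-low cells of LFD held 529 to 20027 UMIs, with a median of 5158, so their summed values lean on the deepest cells.

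Ccl12 and Ccl8 had the largest ratios among the genes higher in both libraries. Ccl8 was 9.67-fold higher in LFD (4.39 to 25.2) and 46.8-fold higher in HFD (31.9 to 71.2), and Ccl12, another monocyte-attracting chemokine, 12.9-fold and 14.9-fold. Gas6, which bridges phosphatidylserine to its receptor kinases, was 7.65-fold and 6.70-fold higher, and the scavenger receptor Stab1 6.40-fold and 7.66-fold. The lipid carrier Apoe was 4.74-fold and 3.14-fold higher, and the haemoglobin receptor Cd163 2.86-fold and 7.21-fold. Maf, a transcription factor of resident macrophages, was 4.67-fold and 2.32-fold higher. Rnase4, Txnip, Cbr2, Ms4a7, Igfbp4 and Fcgrt were also higher, by 3.18-fold to 8.66-fold. Ccnd1 was 2.61-fold and 2.10-fold higher, so that it was above both neighbouring classes. Its HFD ratio leans on the single cell named above that gave much of its HFD counts.

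The genes lower than in lectin-low cells included genes known from monocyte-derived and inflammatory macrophages. Ccr2 was at 111 against 1569 CPM in LFD, a ratio of 0.0709 (0.0382 to 0.121), and at 159 against 759 CPM in HFD, a ratio of 0.210 (0.137 to 0.311). The fibronectin gene Fn1 had 1 UMI in LFD and 13 in HFD Timd4-low cells, against 496 and 525 in lectin-low cells. Il1b, the inflammatory cytokine, was at 0.120 and 0.180 of the lectin-low level, and the lipase Lpl at 0.255 and 0.181. Tnip3, an inhibitor of NF-kB signalling, had 0 UMIs in LFD and 2 in HFD against 79 and 260. Ear2, Sept11, Lsp1, Pim1, Phlda1 and Lyz1 were lower as well, and 98.8% of the Lyz1 counts of LFD Timd4-low cells came from 1 cell. Cd52, higher than in Timd4-high cells, was at 0.303 and 0.273 of the lectin-low level.

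By list, 4 of 9 inflammation genes were lower in LFD, where 13% of all 783 genes were called lower, and 10 of 15 in HFD, where 8.57% of 1832 genes were. Of the listed scavenger and efferocytosis receptors, 7 of 10 were higher in LFD (8.17% of all genes) and 5 of 13 in HFD (4.15%), with Axl lower in HFD. Cd163, Blvrb and Trf, which handle haem and iron, were higher in both libraries, and Nfe2l2 was lower in both. Of the listed monocyte genes, 4 were lower in each library, of 5 measured in LFD and 6 in HFD.

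**Figure D4:**
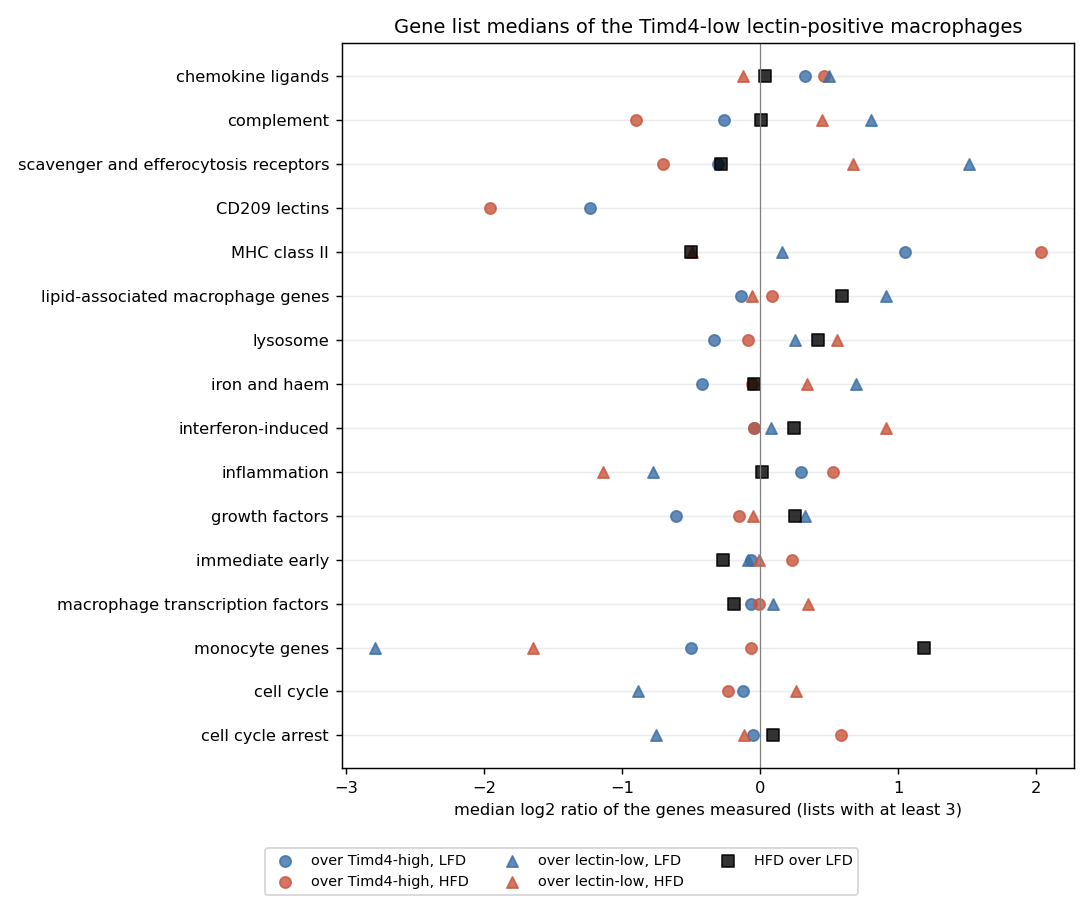
Median log2 ratio of each gene list in Timd4-low cells, against Timd4-high cells (circles), against lectin-low cells (triangles) and between diets (squares), for lists with at least 3 genes measured. MHC class II lies at 1.05 and 2.04 against Timd4-high cells, and the inflammation list at -0.78 and -1.14 against lectin-low cells.

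Timd4-low cells made up 2.46% (1.61 to 3.58) of LFD and 2.60% (1.75 to 3.71) of HFD barcodes with at least 200 genes. The log2 ratio of these shares was 0.08 (-0.68 to 0.83), so a difference was not detectable at this number of cells. Of all macrophages they were 11.3% (7.52 to 16.1) in LFD and 9.03% (6.13 to 12.7) in HFD, while Timd4-high cells were 77.0% and 30.2%. Among lectin-positive macrophages without Cd9, Timd4-low cells were 12.8% (8.54 to 18.2) in LFD and 23.0% (16 to 31.4) in HFD, a log2 ratio of 0.85 (0.15 to 1.54). The level of Ccl24, 1 of the 3 genes that split these cells, was also lower in Timd4-high cells of the HFD library, at 538 against 1095 CPM, so the split is not independent of the diet.

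Of 760 genes with enough counts in Timd4-low cells, 26 (3.42%) were called higher and 21 (2.76%) lower in HFD than in LFD. Without the 1 cell that held the most UMIs of each gene, 29 were called higher and 23 lower, of which 25 and 19 were among the same genes. Without the cells above 10% mitochondrial UMIs, the counts were 29 and 22. The median log2 ratio of all 760 genes was 0.06.

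Rnase2a and Ccl8 had the largest ratios. For Rnase2a, 100 UMIs against 1 gave a ratio of 74.3 with an interval from 13 to 2963, and most of it rested on the 3 cells named above. Ccl8 was 6.35-fold higher in HFD (4.79 to 8.55), a log2 ratio of 2.65. Among cells with Timd4, Ccl24 and Ednrb all at 0, the log2 ratio was 0.54 (-0.12 to 1.31) and the call was lost. The same 2 genes were higher in HFD in Timd4-high cells, Ccl8 by 4.86-fold (4.56 to 5.18) and Rnase2a by 8.43-fold (6.55 to 11), where 1.01% of 4558 genes were called higher and 2% lower. C4b was 2.03-fold higher in Timd4-low cells (1.28 to 3.31) and 1.54-fold in Timd4-high cells. In Timd4-low cells the call was lost with Timd4, Ccl24 and Ednrb at 0, at a log2 ratio of 0.46 (-0.62 to 1.86). It was also lost under limits close to the study's own, at 0.22 (-1.04 to 1.70). Wfdc17 had a ratio of 1.25 (0.972 to 1.62), and 2.02 in Timd4-high cells. Its log2 ratio in Timd4-low cells was 1.21 (0.24 to 2.43) under limits close to the study's own. With Timd4, Ccl24 and Ednrb at 0 it went the other way, at 559 CPM in HFD and 761 CPM in LFD. These values from the 2 classes share their libraries, and no difference between the classes was tested.

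Genes of lipid handling and of the lysosome were among those higher in HFD. Trem2, a lipid receptor of macrophages at chr17:48346401-48354147 (plus strand), had 14 UMIs in 5 of 26 LFD cells and 82 UMIs in 20 of 29 HFD cells. The HFD cells were higher in most cases but overlapped with LFD cells at 0. The level was 111 CPM in LFD and 484 CPM in HFD, a ratio of 4.35 (2.45 to 8.31), and Timd4-high cells had a ratio of 2.97 (2.39 to 3.71). Lgals3, a galectin, was 2.82-fold higher (2.05 to 3.95), Anxa2 2.97-fold (1.67 to 5.63) and the lipid droplet coat gene Plin2 2.17-fold (1.59 to 3.01). These were 4 of 14 measured genes of a list known from lipid-associated macrophages, where 3.42% of all genes were called higher. The lipase Lpl was lower, at 0.471 (0.317 to 0.694). Of the defining genes of that state, Spp1 and Itgax had 0 UMIs in both libraries and Gpnmb had 0 in LFD and 1 in HFD, while the 7 marker genes together stood at 699.5 and 945 CPM, and the list median was 0.59 on the log2 scale against 0.06 for all genes.

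Of 16 lysosome genes measured, the cathepsins Ctsd and Ctsz and the glycoprotein Cd68 were higher, by 2.52-fold, 2.04-fold and 2.13-fold, and none was lower, against 3.42% and 2.76% of all genes. S100a4 (3.71-fold), S100a6 (2.29-fold), S100a10 (2.71-fold), Vim (2.91-fold) and Lmna (2.97-fold), genes of the cytoskeleton, nuclear lamina and calcium binding, were higher too. S100a4 and S100a6 also belong to the monocyte list, of which 2 of 3 measured genes were higher and none lower in HFD (3.42% and 2.76% of all genes), with a median of 1.19 on the log2 scale against 0.06 for all genes. Cdkn1a, the cell cycle inhibitor p21, was at 159 CPM in LFD and 396 CPM in HFD, a ratio of 2.49 (1.49 to 4.33), and was seen in 11 of 26 and 22 of 29 cells. Against Timd4-high cells of the same library it was at 0.440 (0.266 to 0.688) in LFD and 1.49 (1.11 to 1.98) in HFD. It was the only gene called among 4 measured of the cell cycle arrest list, where 3.42% of all genes were called higher and 2.76% lower. Cxcl1, Ms4a6d, Metrnl and Retnla were higher by 4.59-fold, 3.03-fold, 2.97-fold and 2.75-fold, and 26.7% of the HFD counts of Retnla came from 1 cell.

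A different set of chemokines was lower in HFD. Ccl7, Ccl12 and Ccl2 are monocyte chemoattractants that neighbour Ccl8 within chr11:82035571-82116799, a stretch that holds all 4 genes. Ccl7 had 179 UMIs in 15 LFD cells and 67 in 11 HFD cells, a ratio of 0.278 (0.207 to 0.370). Ccl12 was at 0.310 (0.217 to 0.438), with 62.5% of its HFD and 41.7% of its LFD counts in 1 cell each, and Ccl2 at 0.477 (0.397 to 0.572). In Timd4-high cells the ratios of Ccl7, Ccl12 and Ccl2 were 0.736, 0.553 and 0.681, none past 2-fold. Ccl9 was 2.07-fold higher in Timd4-low cells. In all, 3 of 12 chemokine ligands were higher and 3 lower (3.42% and 2.76% of all genes), and the list median was 0.04.

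Mmp9, a matrix gelatinase, was seen in 19 of 26 LFD cells and 2 of 29 HFD cells. Its 67 UMIs against 2 gave a ratio of 0.0222 (0.00263 to 0.0833), and Timd4-high cells had a ratio of 0.294 (0.210 to 0.404). The decreases of C3 and Lyz1 rested on single cells. For C3, 98.0% of the 49 LFD counts came from 1 cell, and without it the ratio was 0.723 (0.00921 to 56.8). For Lyz1, 98.8% of 83 LFD counts came from 1 cell. The costimulatory gene Cd86 was at 0.413 (0.226 to 0.732), properdin (Cfp) at 0.484, the early response factor Egr2 at 0.380 and Cd209g at 0.476. Slc43a2, Hexim1, Ddx3x, Marcksl1 and Nufip2 were also lower, at 0.351 to 0.433.

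**Figure D5:**
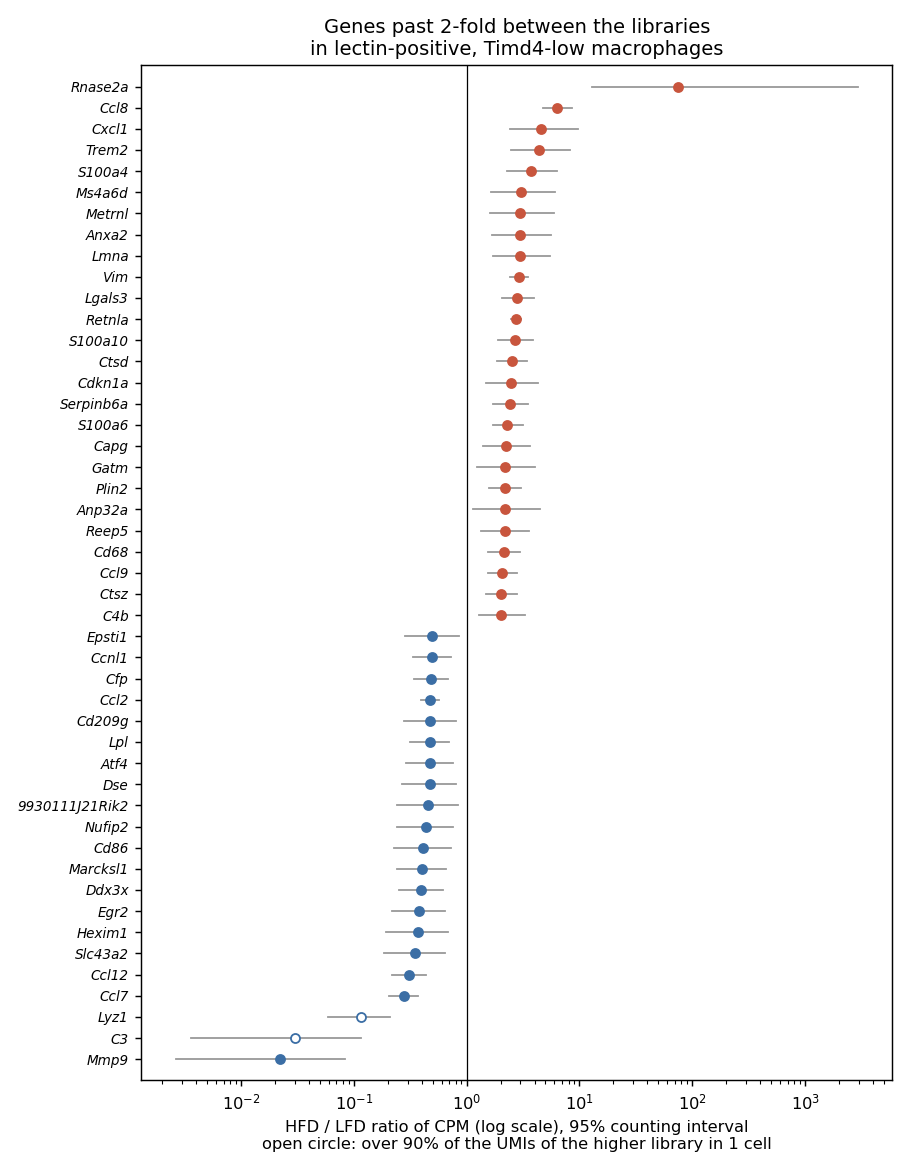
HFD over LFD ratio of CPM in Timd4-low cells, on a log axis, for the 26 genes called higher and the 21 called lower, with 95% counting intervals. Open circles mark C3 and Lyz1, whose LFD counts came almost wholly from 1 cell.

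MHC class II genes were not called in either direction between the diets in Timd4-low cells. Of 7 measured, 0 were called, where 3.42% of all genes were called higher and 2.76% lower, so a count of 0 is near the background. The ratios had a median of -0.50 on the log2 scale, against 0.06 for all genes, with H2-Aa at 6390 CPM in HFD and 9023 CPM in LFD and Cd74 at 0.696 (0.653 to 0.742). In Timd4-high cells 7 of 8 were called lower in HFD (2% of all genes), H2-Aa at 0.369 (0.345 to 0.394), H2-Ab1 at 0.324 and Cd74 at 0.415, with a median of -1.38. The class II share thus went from 4.19% to 2.89% of UMIs in Timd4-low cells and from 2.03% to 0.770% in Timd4-high cells. The 2 changes were not tested against each other.

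Timd4-low cells were not uniform, and in HFD the 12 cells with at least 3 Ccl8 UMIs differed from the 14 without in Lyve1, C4b and Wfdc17. Lyve1 was 6.38-fold higher in the cells with Ccl8 (2.59 to 18.9), C4b 5.47-fold (2.94 to 11) and Wfdc17 4.81-fold (3.31 to 7.12). Of the 4 genes of the lectin sum, which chose the cells and support nothing here, the cells with Ccl8 had Cd209d at 1265 CPM. The 14 cells without Ccl8 had 0 UMIs of Cd209d, which allows up to 33.9 CPM. They had 76 UMIs of Folr2, 5 of Cd209f and 3 of Fcna, so they passed the rule mostly on Folr2. The median class II share was 2.5% in the cells with Ccl8, against 3.71% in cells without it. H2-Ab1 was at 0.705 (0.609 to 0.815) and Cd74 at 0.684 (0.618 to 0.758). In LFD, 5 cells had at least 3 Ccl8 UMIs and 18 had none. Wfdc17 was 2.93-fold higher (1.88 to 4.53) in those with Ccl8, while the intervals of Lyve1 (0.937 to 5.19) and C4b (0.552 to 4.85) held 1. Retnla was lower in the LFD cells with Ccl8, at 0.169 (0.0891 to 0.294), while its ratio in HFD was 1.05 (0.955 to 1.16). These splits used measured counts and are a description.

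By the lectin sum, which is made of genes of the rule and so restates part of the split above, the 10 HFD cells with more than 10 lectin UMIs had Ccl8 at 6326 CPM and a class II share of 1.68%, whereas the 7 cells with 3 to 5 had Ccl8 at 23.1 CPM and a share of 3.62%. In LFD the class II share was 4.10% above 10 lectin UMIs and 3.97% at 3 to 5, and Ccl8 was at 759 CPM at 3 to 5, 0 at 6 to 10 and 613 CPM above 10, so it was not higher with more lectin UMIs there. The cell with the most Ccl8, at 159 UMIs, had 55 lectin UMIs and a class II share of 0.169%, but the cell with the next most, at 85 UMIs, had 10 lectin UMIs and a share of 4.71%. The 9 HFD cells with Cd209d all had Ccl8 as well, while 4 of 12 LFD cells with Cd209d did.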

How the data were processed

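Single cells of the stromal vascular fraction were profiled in 2 libraries, 1 per diet. The authors deposited, for each library, a matrix of unnormalized UMI counts from Cell Ranger (3.0.2 in the file headers) on mm10, and these counts were used unchanged. Barcodes with at least 200 genes were kept, without a further depth or mitochondrial limit. The cells and gene lists were chosen with earlier results of these data known, and the comparison with lectin-low cells was added after the data were seen.

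Counts were summed per class and library and divided by all UMIs of the class to give CPM. Exact Poisson intervals were used for CPM, exact conditional binomial intervals for ratios, Clopper-Pearson intervals for shares and log-scale intervals for ratios of shares, all at 95%. They cover counting error only. A floor for a count of 0 was set at 3 counts. Library depth was 7356278 UMIs in LFD and 8412325 in HFD. T cells had at least 2 Cd3 UMIs and fewer than 3 of C1q. Log2 ratios used 0.5 added UMIs. Genes of the rule were left out of calls.

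Named were the 5 proposed markers and the rule genes, up to 12 genes in each direction of each comparison by ratio, and from the 16 lists the called genes and up to 4 of the most abundant. Genes that fall outside this rule (Csf1r, Adgre1 and the others compared between cells with and without Ccl8, for example) were chosen after their values were seen. Gene positions came from GENCODE M21, where 27645 of 27998 gene identifiers matched, and promoter sequences from RefSeq. Doublets were marked with Scrublet, which removed none of these cells. The ratio method was run on simulated counts drawn per summed class, without variation between cells. It therefore does not cover genes whose counts come mostly from a single cell. Scanpy 1.11.5 handled the doublet step and scipy 1.17.1 the intervals, under Python 3.11.15 with pandas 2.3.3 for the tables, numpy 2.4.6 for the sums and matplotlib 3.10.9 for the figures. Alternatives changed the gates, depth, mitochondrial limits, gene filter, centring and single-cell dominance.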

Additional observations from a re-analysis of the deposited data

How the results depend on the processing

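No paired analysis was possible because each diet had 1 library, and for the same reason no library could be left out. The 55 cells and the 50-UMI minimum limit what could be seen to abundant genes. Of the alternative values for the main results, 105 stayed close to the reported ones and 25 moved, and the cause of the moves was not tested. Scrublet marked 0 of the 26 and 0 of the 29 cells. A minimum of 2000 UMIs and centring moved no main result.

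Limits close to the study's own (at most 2500 genes, under 5% mitochondrial UMIs) left 4 LFD and 7 HFD cells, without the HFD cell at exactly 5%. The share of all cells was then 1.36% in LFD, and the share of lectin-positive cells 41.2% in HFD with a log2 ratio of 2.01. Between diets 11 genes were higher and 13 lower, and against Timd4-high cells in both libraries 0 were higher and 3 lower. The class II medians against Timd4-high cells were 0.36 and 1.16. The log2 ratio of Ccl8 reversed to 0.52 in LFD and 0.67 in HFD, and that of Rnase2a to 2.39 in LFD, while Rnase2a in HFD moved from 0.16 to 2.21.

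With Timd4, Ccl24 and Ednrb all at 0, the shares were 0.851% and 1.43% of all cells and 4.84% and 14.2% of lectin-positive cells, a log2 ratio of 1.55. Against Timd4-high cells 5 genes were higher and 11 lower, the diet log2 ratio of Cd209d reversed to -0.22, and those of Ccl8 and C4b lost their calls at 0.54 and 0.46. A lectin sum of at least 6 left 10 genes lower than in Timd4-high cells, leaving out technical genes left 12, and leaving out the top cell of each gene, an alternative chosen after seeing the data, gave 31. Allowing 1 Cd9 UMI put the class II diet median at -0.69. With a minimum of 20 UMIs per gene, 83 genes were higher and 66 lower between diets. With no minimum, 137 were higher and 176 lower between diets, and 19 higher than in Timd4-high cells. Without cells above 10% mitochondrial UMIs, also chosen after seeing the data, the class II medians were 1.12 and 1.97.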
